A study of Mus musculus with 12 samples.

Results

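The genes Hmgcs1, Sqle, Lss, Idi1, Insig1, Fdft1 and Srebf2 belong to cholesterol synthesis and to its control by the sterol regulatory element binding proteins (SREBPs). They were taken by symbol, and all 7 were found among the 23337 genes counted in each of the 2 tables of the series, one table for each time. All 7 also passed the filter on low counts in every comparison, so each was tested. Hmgcs1, Idi1, Fdft1, Sqle and Lss encode enzymes of the pathway, Srebf2 encodes the transcription factor SREBP2, and Insig1 encodes a sterol-responsive brake on it.

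Cells build cholesterol from acetyl-CoA through mevalonate, isoprenoids and squalene, which is then closed into the sterol ring. When the endoplasmic reticulum is poor in sterol, the escort protein SCAP carries SREBP2 to the Golgi, where proteases release a fragment that enters the nucleus, binds sterol regulatory elements and raises transcription of genes that make and take up cholesterol. When sterol is plentiful, INSIG proteins hold SCAP and SREBP2 in place, and Insig1 is itself an SREBP target. In the urothelium, the lining of the bladder, the plaques on the surface of the umbrella cells are rich in cholesterol as well as in uroplakins.

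The series measured RNA in urothelium peeled from mice that were wild type (WT) or knockout (KO) for Stag2, a subunit of the cohesin complex. All 12 mice, the WT mice included, received TMX (read here as tamoxifen) in their diet for 1 week. They were killed 1 week or 1 month after that treatment started, which gives 4 groups of 3, with both genotypes killed at each time. The driver of the recombinase, the strain, the age and the sex of the mice are not given in the sources used here. Libraries were 3′ tag libraries, which read the ends of transcripts. Levels are CPM, counts scaled to a common library total, after TMM scaling within each time, so they compare 1 gene between libraries of a time and not 1 gene with another. Every library at 1 week was in batch 1, so time and batch cannot be told apart, and levels are not compared between the times. At 1 month, replicates 1 and 2 of each genotype were in batch 2 and replicate 3 of each was in batch 3, and the batch was a term of that fit.

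Library totals ran from 5580961 to 9497088 counts. The Stag2 transcript was looked at as a check of the labels. It was 127.6 ± 23.9 CPM in WT and 68.8 ± 7.57 in KO at 1 week, and 55.8 ± 8.32 and 31.2 ± 10.3 at 1 month (mean ± SD, n = 3). The groups did not overlap at either time, but 26.5% of all genes did not overlap at 1 week, and 7.58% did so with KO lower at 1 month. Stag2 did not pass edgeR's quasi-likelihood test at 1 week (adjusted p 0.198) or at 1 month (0.0507), so this check is of the direction only. KO replicate 3 of 1 week stood apart, with rank correlations of 0.689 to 0.809 with the other libraries of its time over 11577 genes. Xist, the RNA of the inactive X chromosome, was at 1149 to 1379 CPM in the 3 KO libraries of 1 week and at 1181 CPM in KO replicate 3 of 1 month. It was at no more than 3.45 CPM in every other library. At 1 week, sex by this measure and genotype cannot be told apart. The same holds within batch 3 of 1 month, which had 1 library of each genotype. All 15 urothelial markers were detected in every group, with summed levels of 17060 to 31290 CPM in WT and 12070 to 18240 in KO at 1 month. The 15 stromal, muscle and vessel markers summed to 10700 to 13670 CPM in WT and 8281 to 9750 in KO at 1 month, and to 3658 to 5985 and 5872 to 11280 at 1 week, so the peeled tissue was not urothelium alone. In bulk RNA, fewer cells of a type and less RNA per cell cannot be told apart.

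The genes lie on 5 chromosomes (GENCODE M21 on GRCm38): Insig1 on chr5:28071363-28078662, Lss on chr10:76531588-76557138, Idi1 on chr13:8885501-8892451, Hmgcs1 on chr13:119690379-119708260, Fdft1 on chr14:63145150-63179578, Sqle on chr15:59315077-59331192 and Srebf2 on chr15:82147181-82205379. Fdft1 is on the minus strand and the others are on the plus strand. The gene models Mir33 and Gm49502 overlap Srebf2 on its strand, and how reads shared by such models were counted is not given in the sources used here. Promoters came from RefSeq on GRCm38.p6, where 5 of the 7 genes matched an entry, all but Sqle and Fdft1. The 3 printed here are those of the gene with the largest change, Insig1, of an early enzyme, Hmgcs1, and of the regulator, Srebf2. Each runs 5′ to 3′ on the plus strand and stops before the first annotated transcribed base. Capitals mark the letters TCACNCCA (a core like that of a sterol regulatory element), CCAAT (the box bound by NF-Y) and CACGTG (an E-box), each searched on both strands.
Insig1, chr5:28071162-28071362: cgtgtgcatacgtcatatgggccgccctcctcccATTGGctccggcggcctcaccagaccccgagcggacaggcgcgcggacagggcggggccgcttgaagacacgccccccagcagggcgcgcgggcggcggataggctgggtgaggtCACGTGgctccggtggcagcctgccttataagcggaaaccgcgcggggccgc
Hmgcs1, chr13:119690101-119690350: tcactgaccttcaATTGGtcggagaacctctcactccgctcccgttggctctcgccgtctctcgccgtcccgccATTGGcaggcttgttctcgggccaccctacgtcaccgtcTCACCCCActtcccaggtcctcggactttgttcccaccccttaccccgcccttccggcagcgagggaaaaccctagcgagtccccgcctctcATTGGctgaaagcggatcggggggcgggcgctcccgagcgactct
Srebf2, chr15:82147019-82147180: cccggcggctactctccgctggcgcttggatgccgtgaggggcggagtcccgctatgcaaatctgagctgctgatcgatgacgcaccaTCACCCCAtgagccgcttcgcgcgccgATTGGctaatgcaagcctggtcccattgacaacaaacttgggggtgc

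Motifs were searched in the 250 bases before the RefSeq start. In 4 of the 5 genes, all but Hmgcs1, the first annotated transcribed base lies within that window, and the bases from there on are not printed (49 in Insig1, 88 in Srebf2, 17 in Lss and 105 in Idi1). TCACNCCA was found in Hmgcs1, 137 bases before the RefSeq start, and in Srebf2, 162 bases before the RefSeq start and 74 before the end of the printed stretch. These letters were not in the windows of Lss, Idi1 and Insig1. CACGTG was in that of Insig1, 101 bases before the RefSeq start and 52 before the printed end. CCAAT was in all 5 windows, 3 times in Hmgcs1, but both matches of Idi1 (45 and 14 bases before the RefSeq start) lie in its annotated transcribed part. Of 32851 such windows of RefSeq genes, 3.67% held TCACNCCA, 33.8% held CCAAT and 6.02% held CACGTG. These matches are letters in a window, and no binding was measured.

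At 1 month, the level of Insig1, the brake of the pathway, fell in KO urothelium, and the enzymes Hmgcs1, Idi1, Fdft1 and Sqle had lower values in each KO library than in any WT library without passing the test. Of the 7 genes, 1 was called (lower) at an adjusted p under 0.05 with edgeR's quasi-likelihood test, against 2.22% of all 12139 genes tested (1.22% lower). In 5 of the 7, the groups did not overlap, with KO lower, against 7.58% of all genes (4 of the 7 with RLE scaling and 2 with scaling by library totals alone). The log2 difference was below 0 for 6 of the 7 (5 with library totals alone), against 50.4% of all genes, and the median of the 7 was -0.39, against -0.01 over all genes. Counts of 7 related genes are a description, and no test was made of them as a group.

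Insig1 was at 18.9, 19.8 and 13.3 CPM in WT replicates 1 to 3 at 1 month and at 6.04, 7.83 and 7 CPM in the KO replicates. Every KO library lay below every WT library, and the KO libraries were close together. The means were 17.3 ± 3.51 and 6.96 ± 0.895 CPM (SD, n = 3), from 87 to 110 counts per library in WT and 46 to 49 in KO. The level in KO was 0.406 of that in WT, a log2 difference of -1.30 with a standard error of 0.29 and an adjusted p of 0.0371 with edgeR. Within batch 2 the log2 difference was -1.45, and within batch 3, with 1 library of each genotype and no test, it was -0.90. The call was lost without the batch term (adjusted p 0.341 with edgeR, where 0 genes were called) and with scaling by library totals alone (adjusted p 0.0628). It was also lost without WT replicate 1 (adjusted p 0.12), WT replicate 2 (0.174), KO replicate 1 (0.129) or KO replicate 2 (0.114), while the log2 difference stayed between -1.49 and -1.09. Without KO replicate 3, the 1 library of this time that carried Xist, the adjusted p was 0.00828. In that fit the genotype difference rests on batch 2, and calls among all genes rose as well. They were 961 higher and 552 lower, against 121 higher and 148 lower with every library. The part of sex in the value of Insig1 was not tested.

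**Figure D1:**
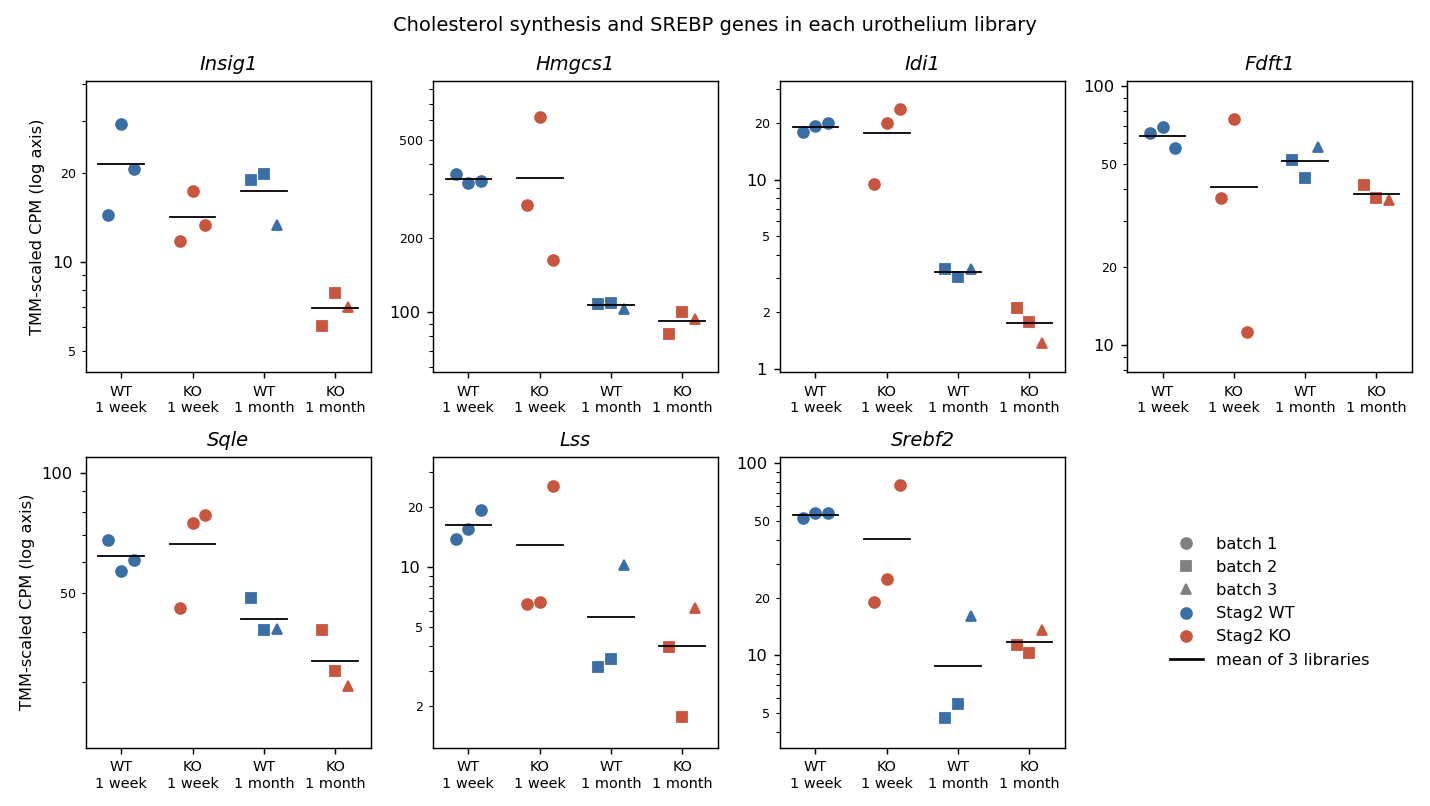
TMM-scaled CPM (log axis, 1 panel per gene) of the 7 genes in each of the 12 libraries, grouped as WT and KO at 1 week and at 1 month, with points for libraries (shape by batch) and a bar for the group mean. At 1 month the KO points of Insig1 lie between 6.04 and 7.83 CPM, below the WT points at 13.3 to 19.8, and at 1 week the KO points of Hmgcs1, Lss, Fdft1 and Srebf2 are spread far wider than the WT points.

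Hmgcs1, an early enzyme of the mevalonate pathway, was at 108.2, 109.6 and 103.0 CPM in WT at 1 month and at 82.0, 100.5 and 93.7 in KO. The groups did not overlap, but the highest KO library was close to the lowest WT library. On the log2 scale KO minus WT was -0.22 with a standard error of 0.19 and an adjusted p of 0.541 with edgeR. With library totals alone as the scaling it was 0.01, so its direction depends on the scaling.

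Idi1, which interconverts the isoprenoid units, was the least counted of the 7 at this time, where WT libraries held 17, 17 and 22 counts and KO libraries 17, 11 and 9. Scaled, these were 3.34, 3.06 and 3.37 CPM in WT and 2.10, 1.76 and 1.37 in KO. The groups did not overlap, and the log2 difference was -0.90 with a standard error of 0.46 and an adjusted p of 0.278 with edgeR. At this depth a difference of that size did not pass.

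Fdft1, squalene synthase, makes the first step given over to sterols. It was at 51.7, 44.1 and 58.1 CPM in WT and at 41.3, 36.9 and 36.4 in KO, with no overlap. Its log2 difference was -0.42 with a standard error of 0.21 and an adjusted p of 0.27 with edgeR. Sqle, the epoxidase that acts next and limits the later part of the pathway, was at 48.6, 40.5 and 40.7 CPM in WT and at 40.4, 31.96 and 29.4 in KO. KO replicate 1 came just under the lowest WT library, and the log2 difference was -0.35 with a standard error of 0.22 and an adjusted p of 0.364. Both genes were lower in KO within each batch, Fdft1 by -0.29 and -0.67 and Sqle by -0.30 and -0.47 on the log2 scale in batches 2 and 3. Batch 3 had 1 library of each genotype, where sex by Xist and genotype cannot be told apart.

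Lss, lanosterol synthase, closes the ring. It was at 3.15, 3.42 and 10.2 CPM in WT and at 3.94, 1.76 and 6.24 in KO, from 11 to 67 counts. In both genotypes replicate 3, the batch 3 library, was the highest, and the groups overlapped. KO minus WT was -0.39 on the log2 scale with a standard error of 0.42 and an adjusted p of 0.616 with edgeR.

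Srebf2 was the gene of the 7 with a higher value in KO. It was at 4.72, 5.58 and 16.1 CPM in WT and at 11.3, 10.2 and 13.5 in KO. WT replicate 3, of batch 3, was above every KO library, and the other WT libraries were below them all. Within batch 2 the log2 difference was 1.03, and within batch 3 it was -0.24. Over both it was 0.59 with a standard error of 0.34 and an adjusted p of 0.34 with edgeR, so no direction is drawn for it.

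**Figure D2:**
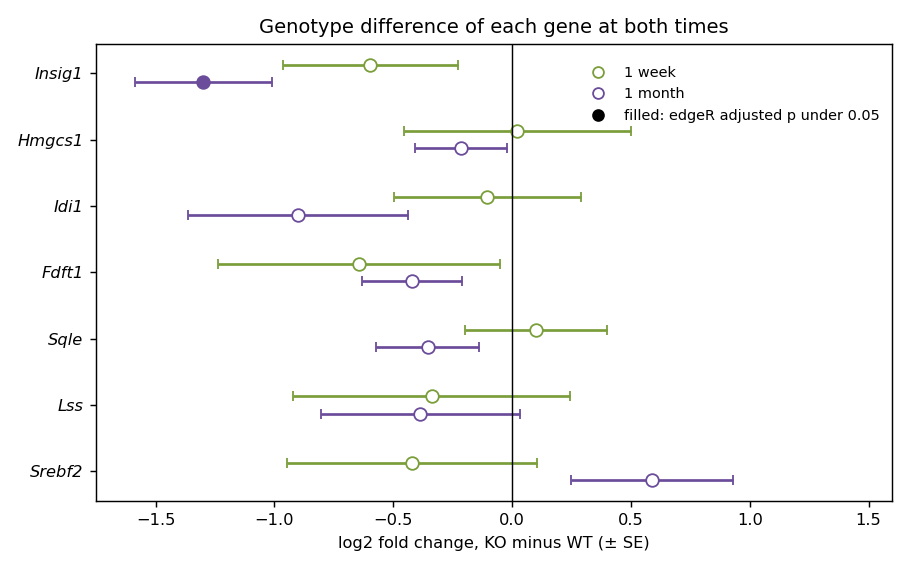
Log2 difference KO minus WT of the 7 genes at 1 week and at 1 month, with bars of 1 standard error to each side from edgeR's fits and filled points for an adjusted p under 0.05. The Insig1 point at 1 month, at -1.30, is the 1 called difference, and the Srebf2 points lie on opposite sides of 0, at -0.42 and 0.59.

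The other parts of the machinery did not pass at 1 month. Srebf1, which encodes SREBP1, had a log2 difference of 0.31 (adjusted p 0.619 with edgeR). Srebf1 showed the batch more than the genotype, at 2.16, 3.42 and 24.5 CPM in WT and 5.05, 3.35 and 23.4 in KO. Scap was at 0.57 (adjusted p 0.197), and without replicate 3 of either genotype it passed (0.91 and adjusted p 0.0265 in batch 2 alone). Insig2, the second brake, was at -0.57 (adjusted p 0.296), with each KO library below each WT library. Of the list of 10 genes of SREBP control, which holds neither Srebf2 nor Insig1, 6 were higher and 4 lower, 0 were called, and the median was 0.04. One of the 10 had an unadjusted p under 0.05 in each direction.

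Across the whole pathway at 1 month, most enzymes had lower values in KO and none was called. Of 22 enzymes, the 5 named above among them, 21 were tested, and Tm7sf2 did not pass the filter on low counts. Values were below 0 on the log2 scale for 17 (15 with library totals alone) and above 0 for 4, with a median of -0.35 against -0.01 over all genes. In 9 of the 21 (5 of them not named above), KO libraries were all lower, and in 0 were they all higher, against 7.58% and 5.72% of all genes. At an unadjusted p under 0.05, 3 of the 21 were lower, against 10.3% of all genes, so this count is a description only. These 3, named after their values were seen, were Mvd, which makes isopentenyl pyrophosphate, Fdps, which makes farnesyl pyrophosphate, and Sc4mol (also Msmo1), which removes methyl groups from the sterol ring.

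Mvd was at 226.2, 136.3 and 87.2 CPM in WT and at 86.9, 30.5 and 38.2 in KO at 1 month. KO replicate 1 was just under the lowest WT library, so the groups did not overlap. Its log2 difference was -1.48 with a standard error of 0.36 and an adjusted p of 0.0642 with edgeR. Fdps was at 108.0, 64.4 and 81.2 CPM in WT and at 59.4, 33.2 and 36.5 in KO, a log2 difference of -0.98 with a standard error of 0.27 and an adjusted p of 0.0699. Sc4mol was at 175.3, 124.2 and 151.9 CPM in WT and at 95.3, 74.8 and 97.2 in KO, a log2 difference of -0.76 with a standard error of 0.21 and an adjusted p of 0.079. All 3 were lower in KO within each batch, by -1.76 and -1.19, -0.90 and -1.15, and -0.80 and -0.64 on the log2 scale in batches 2 and 3. The values of batch 3 come from 1 library of each genotype, where sex by Xist and genotype cannot be told apart. DESeq2, run as an alternative, called all 3, with adjusted p of 0.00129, 0.0234 and 0.0332, and Insig1 with 0.00728. It called more of the 12139 genes than edgeR did, with 327 lower and 441 higher, against 148 lower and 121 higher. The within-batch values and the DESeq2 calls use the same libraries by which the 3 enzymes were picked, so they are not independent support.

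**Figure D3:**
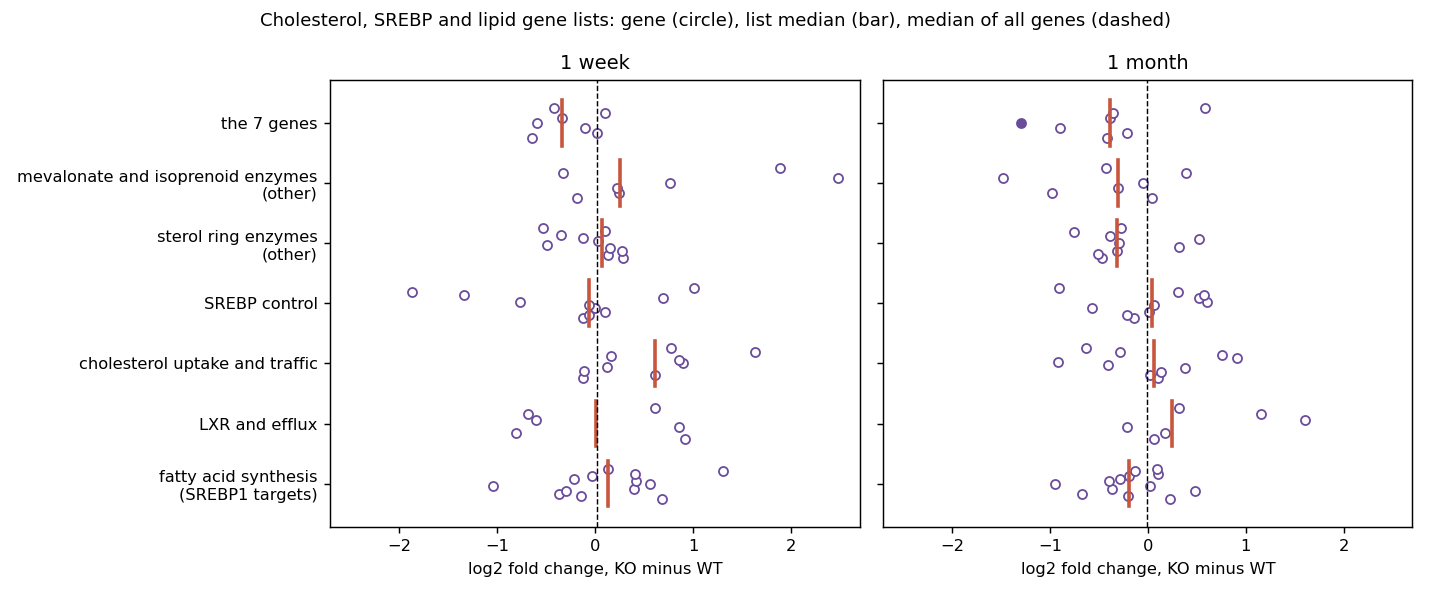
Log2 difference KO minus WT of the genes tested in each list at 1 week and at 1 month, 1 point per gene, with a bar for the median of the list and a dashed line for that of all genes (filled circles passed at an adjusted p under 0.05). At 1 month the medians of the 7 genes, of the other mevalonate and isoprenoid enzymes and of the other sterol ring enzymes lie at -0.39, -0.31 and -0.32, and at 1 week they lie at -0.34, 0.25 and 0.07.

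The lists of uptake, efflux and fatty acid synthesis had no called gene at 1 month. Of 10 genes of cholesterol uptake and traffic, 6 were higher and 4 lower (median 0.06), and of 6 tested genes of LXR signalling and efflux, 5 were higher and 1 lower (median 0.25). Of 13 tested genes of fatty acid synthesis, 5 were higher and 8 lower (median -0.19). In all 3 lists 0 were called by edgeR, and at an unadjusted p under 0.05 there were 1 higher and 1 lower, 1 higher, and 1 higher and 2 lower. The closest to the threshold, named after their values were seen, were Nr1h2, which encodes LXR beta (1.15, adjusted p 0.0629), Scarb1, the receptor for high-density lipoprotein (0.76, adjusted p 0.0959), and Fads2, a desaturase of fatty acids (-0.95, adjusted p 0.096). DESeq2 called the first 2 of these (adjusted p 0.0131 and 0.045), among 441 genes that it called higher at this time. The Nr1h2 groups overlapped, with WT replicate 3 at 28.45 CPM, above KO replicates 1 and 2 at 26.26 and 27.8. Its log2 difference was 1.57 within batch 2 and 0.46 within batch 3.

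Markers of cell types moved beside these genes at 1 month. Summed immune markers were at 639 to 1280 CPM in WT and 324.6 to 388.9 in KO, and all 7 of the 11 immune genes that could be tested were lower in KO, 3 of them called: Cd74 (-1.76, adjusted p 0.00344 with edgeR), C1qa (-1.95, 0.0121) and Csf1r (-1.13, 0.0429). Of the 15 urothelial markers 12 were lower, and Krt20, a keratin of umbrella cells, was called (-1.76, adjusted p 0.00601). Krt5 and Trp63, markers of basal cells named after their values were seen, had higher means in KO without passing. Krt5 was at 111.5, 206.1 and 505.3 CPM in WT and 604.3, 616.7 and 673.7 in KO, with no overlap (1.44, adjusted p 0.0505). Trp63 was at 14.76, 21.6 and 34.57 CPM in WT and 35.75, 45.06 and 31.04 in KO, with overlap (0.71, adjusted p 0.194). In batch 3 its KO library was below its WT library. Of the stromal list 8 were higher and 7 lower, and Pdgfrb, a receptor of mural cells, was called higher (1.30, adjusted p 0.0218), though its groups overlapped. The muscle genes of that list did not share its rise. Tagln was at -1.36, Cnn1 at -0.585, Des at -0.30, Acta2 at 0.29 and Myh11 at 0.11 on the log2 scale, none of them called. Of the 7 adipocyte genes, 2 could be tested, and neither was called. KO replicate 1 carried adipocyte transcripts, with Cfd at 57.3 CPM, Retn at 8.51, Adipoq at 6.53 and Cidec at 4.19. Lep and Plin1 had 3 and 2 counts in it, too few to read. In the other libraries of 1 month Cfd was at no more than 7.74 CPM, Cidec 1.26, Retn 0.72 and Adipoq 0.540. Fabp4, which endothelial cells also express, ran from 65.5 to 420.2 CPM in WT and from 78.4 to 172.0 in KO. Without that KO library the log2 difference of Insig1 was -1.09 (adjusted p 0.129 with edgeR). Summed markers of dividing cells were at 34.6 to 73.8 CPM in WT and 25.1 to 38.5 in KO. The part of these shifts in the values of Insig1 and the enzymes was not tested.

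At 1 week, none of the 7 genes was called, against 0.0627% of the 12754 genes tested with edgeR (8 genes). Those 8 included Xist, higher in KO, and 4 transcripts of the Y chromosome, lower in KO, and sex and genotype cannot be told apart at this time. None had an unadjusted p under 0.05, against 15.5% of all genes, DESeq2 called 0 of them, and in all 7 the groups overlapped, whereas 26.5% of all genes did not overlap. Of the 7, 5 had a log2 difference below 0 and 2 above it, against 48.5% of all genes below 0. KO libraries were more spread than WT libraries at this time, in these genes and in the data as a whole. The SD was 3.40% to 34.8% of the mean across the 7 genes in WT and 20.4% to 85.1% in KO, and it was larger in KO for every gene but Insig1. Over all 12754 genes the median was 18.2% in WT and 45.3% in KO, and it was larger in KO for 85.6% of them.

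Hmgcs1 was at 361.7, 333.8 and 339.5 CPM in WT at 1 week and at 271.2, 616.7 and 162.9 in KO. The 3 WT libraries lay close together, and the KO libraries stood above and below them all. The log2 difference was 0.02 with a standard error of 0.48 (adjusted p 0.989 with edgeR), and it ran from -0.70 without KO replicate 2 to 0.33 without KO replicate 3. Fdft1 was at 65.8, 69.2 and 57.4 CPM in WT and at 36.9, 74.5 and 11.2 in KO, with a log2 difference of -0.64 and a standard error of 0.59 (adjusted p 0.613). In both genes KO replicate 2 was the highest library and KO replicate 3 the lowest.

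In Srebf2 and Lss, KO replicate 3 was the highest library of the time and not the lowest. Srebf2 was at 51.9, 54.9 and 55.2 CPM in WT and at 18.9, 25.1 and 77.3 in KO. KO replicates 1 and 2 were well below every WT library, and KO replicate 3, the library that stood apart, was above them all. The log2 difference was -0.42 with a standard error of 0.53 (adjusted p 0.711 with edgeR), and without KO replicate 3 it was -1.34 with an adjusted p of 0.0362. Lss was at 13.7, 15.4 and 19.3 CPM in WT and at 6.48, 6.63 and 25.5 in KO. Its log2 difference was -0.34 with a standard error of 0.58 (adjusted p 0.791), and without KO replicate 3 it was -1.34 (adjusted p 0.0612). Leaving out that library raised the calls among all genes from 8 to 320.

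Insig1 was at 14.3, 29.2 and 20.6 CPM in WT at 1 week and at 11.8, 17.3 and 13.3 in KO. The lowest WT library lay within the KO range, and the log2 difference was -0.60 with a standard error of 0.37 (adjusted p 0.462 with edgeR). Idi1 was at 17.7, 19.3 and 19.9 CPM in WT and at 9.46, 19.9 and 23.7 in KO (-0.10, adjusted p 0.913). Sqle was at 68.1, 57.0 and 60.8 CPM in WT and at 46.1, 74.9 and 78.5 in KO (0.10, adjusted p 0.884). For Idi1 and Sqle, KO replicate 1 was below every WT library and KO replicate 3 was above every one.

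Across the whole pathway at 1 week, all 22 enzymes were tested, the 5 above among them. In all, 13 were higher and 9 lower, with a median of 0.07 against 0.02 over all genes. edgeR called 0 of them, and 1 had an unadjusted p under 0.05, Pmvk (named after its value was seen), a kinase of the mevalonate pathway, at 1.89 with an adjusted p of 0.252. Mvd was at 782.4 CPM in KO replicate 3 and between 30.9 and 79.9 CPM in the other 5 libraries of that time. Srebf1 was at 31.4, 58.8 and 26.8 CPM in WT and at 9.05, 8.39 and 14.7 in KO. Every KO library was below every WT library, and the log2 difference was -1.87 with a standard error of 0.43 and an adjusted p of 0.13 with edgeR. It passed without KO replicate 3 (-2.21, adjusted p 0.0402) and with DESeq2 (adjusted p 0.00397). Soat1, which stores cholesterol as esters and was named after its values were seen, was at 17.3, 16.8 and 11.3 CPM in WT and at 35.9, 53.0 and 51.5 in KO. The groups did not overlap, and its log2 difference was 1.63 with a standard error of 0.32 and an adjusted p of 0.109. It passed without KO replicate 3 (1.52, adjusted p 0.046) and with DESeq2 (adjusted p 5.48e-04). Both settings called many more genes than the 2 higher and 6 lower of the main fit. Calls were 220 higher and 100 lower without KO replicate 3, and 687 higher and 270 lower with DESeq2.

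Insig2 and Scap did not pass the test at 1 week. Insig2 had a log2 difference of 0.00 (adjusted p 0.999 with edgeR). Scap was at 69.9, 88.1 and 65.1 CPM in WT and at 30.1, 56.4 and 1.43 in KO, all below WT, with a log2 difference of -1.33 and an adjusted p of 0.514. Its lowest library was again KO replicate 3, and without it the value was -0.81. Of the 10 genes of SREBP control, 3 were higher and 7 lower (median -0.06), and of 9 tested genes of uptake and traffic, 7 were higher and 2 lower (median 0.61). LXR signalling and efflux had 3 higher and 3 lower (median 0.01), and fatty acid synthesis had 7 higher and 6 lower (median 0.13). edgeR called 0 genes in these 4 lists, where 1 lower, 1 higher, 1 higher and 2 higher had an unadjusted p under 0.05. Beside these values, summed markers of dividing cells were at 26.5 to 29.2 CPM in WT and 142.0 to 902.2 in KO at 1 week, and 14 of the 15 stromal genes were higher in KO. Summed immune markers were at 149.3 to 256.0 CPM in WT and 282.3 to 609.8 in KO, with 7 of 8 tested genes higher, 0 called by edgeR and 3 higher at an unadjusted p under 0.05. Summed urothelial markers overlapped, at 13040 to 16150 CPM in WT and 11090 to 15050 in KO. The part of these shifts in the members' values was not tested.

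The difference between the genotype effects at the 2 times was tested in 1 fit over the 12 libraries, and none of the 7 genes passed. edgeR called 0% of 13122 genes in that fit, 2611 (19.9%) had an unadjusted p under 0.05, none of them among the 7, and DESeq2 called 917 genes but 0 of the 7. The difference (1 month minus 1 week) was -0.69 for Insig1 with a standard error of 0.47 (adjusted p 0.411), so its call at 1 month is not shown to differ from its value at 1 week. For Srebf2 it was 1.04 with a standard error of 0.68 (adjusted p 0.394), and without KO replicate 3 of 1 week it was 1.89 (adjusted p 0.0357). For Idi1 it was -0.79 (adjusted p 0.412), for Sqle -0.45 (0.505), for Hmgcs1 -0.23 (0.834), for Fdft1 0.23 (0.868) and for Lss -0.03 (0.989).

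**Figure D4:**
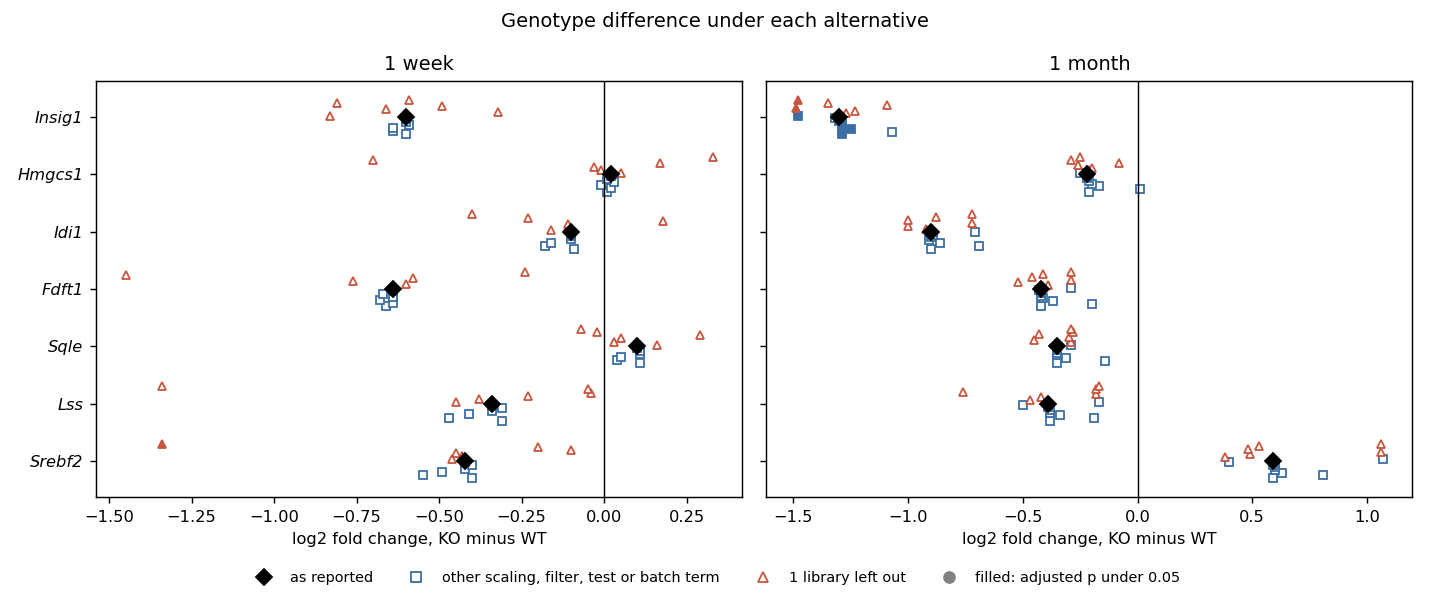
Log2 difference KO minus WT of each of the 7 genes at 1 week and at 1 month under every processing alternative and with each library left out in turn, 1 point per setting (diamonds as reported, squares other settings, triangles 1 library left out, filled where the adjusted p was under 0.05). At 1 month the Insig1 points stay at or below -1.07, and at 1 week the points of Lss, Fdft1 and Srebf2 reach -1.34, -1.45 and -1.34 when 1 KO library is left out.

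The 7 genes did not move as a block from library to library. With levels centred within each time, the correlation of a gene with the mean of the other 6 over 12 libraries was 0.77 for Idi1, 0.53 for Insig1, 0.47 for Sqle, 0.25 for Lss, 0.23 for Fdft1, 0.15 for Hmgcs1 and 0 for Srebf2. These are descriptions over libraries that share depth, scaling and genotype. Of 7895 other genes with at least 10 CPM on average at both times, the pattern closest to the mean of the 7 belonged to Sc4mol (r = 0.87), followed by Anxa8 (0.84), an annexin, Mgat4a (0.84), a glycosyltransferase, and Hsd17b7 (0.83), a sterol enzyme. Of these 4, Anxa8 was called at 1 month, at 78.0 CPM in WT and 18.8 in KO (log2 difference -2.06, adjusted p 0.00122 with edgeR). Of all genes tested at that time, 2.22% were called. The mean of the 7 was itself lower in every KO library of 1 month than in any WT library. Genes picked for following that mean are therefore favoured to be lower in KO, and the call is a description only.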

How the data were processed

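RNA of peeled urothelium from 12 mice was made into QuantSeq 3′ libraries with directional reads, per the labels' protocols. The authors deposited raw counts per gene in 1 table for each time. Bowtie, TopHat, HTSeq and DESeq2 and the build mm10 are named in the submitters' processing notes, and their versions, settings and annotation are not given in the sources used here. The labels give the kit as stranded in the sense orientation, so antisense genes can be separated only if the counting used that setting. Every row named a gene, and reads that match near-identical copies may be split or lost.

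Totals were 5580961 to 9497088 counts per library, and 3 counts corresponded to 0.311 to 0.613 CPM. Samples were grouped by the genotype and time in the labels. For 1 library, WT replicate 3 of 1 month, the animal number in the title differs from the library name, and its column was matched by the library name. Whether mice of a group shared a litter is not given, and p-values measure the spread between these samples. No pair of libraries agreed within counting noise.

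Counts were tested with edgeR 4.0.16 in R 4.3.3 (TMM scaling, filterByExpr, robust quasi-likelihood fits, two-sided, Benjamini-Hochberg adjustment over all genes tested, called at an adjusted p under 0.05): KO against WT at 1 week, KO against WT at 1 month with batch as a covariate, and the difference of these over 12 libraries. Standard errors are the log2 difference divided by the square root of F. Alternatives were other scalings, filters and dispersions, no batch term, batch 2 alone, DESeq2 1.42.0 and each library left out. On simulated counts with 200 genes changed 4-fold, the fits recovered 94 genes at 1 week with 7 false calls, 187 at 1 month with 11, and 49 for the difference with 2. These counts followed the trend of spread with level, with no spread of a gene's own. A 4-fold change is larger than the difference of any of the 7 genes, so recovery of differences like theirs was not measured.

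The 7 genes and the lists (131 symbols, 129 found by name and 2 by a RefSeq synonym) were chosen with earlier results of these data known. Genes named are the 7, Srebf1, Scap, Insig2 and Stag2, up to 4 called genes of each list, the 4 closest patterns (Pearson correlation of log2 CPM, prior count 2, centred within time), and those said to be named after their values were seen. Some genes of this rule are not reported here.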

Additional observations from a re-analysis of the deposited data

Results flagged for a closer look

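Of 106 genes of the lists and of the 7 that could be compared at both times, 3 had groups that did not overlap at either time and that lay in opposite directions, and all 3 are immune markers. Over all genes, 26.5% did not overlap at 1 week, and at 1 month 7.58% did not with KO lower and 5.72% with KO higher. The share of all genes with opposite directions was not counted, so the count of 3 is a description only. Csf1r, a receptor of macrophages, had a log2 difference (KO minus WT) of 1.57 at 1 week and -1.13 at 1 month. C1qa, a complement gene of macrophages, had 2.03 and -1.95. Itgax, an integrin of dendritic cells and macrophages, had 0.51 and -2.02. At 1 week none of the 3 passed with edgeR (adjusted p 0.172, 0.144 and 0.612, in that order). Itgax was barely separated at that time, with its top WT library at 1.985 CPM and its bottom KO library at 2.026. Its unscaled counts overlapped, running from 11 to 29 across KO libraries against 13 to 17 across WT libraries. Its direction at 1 week is therefore not shown. In edgeR's fit of the difference between the times over 12 libraries, which called 0 genes, the adjusted p was 0.099 for Csf1r, 0.0879 for C1qa and 0.162 for Itgax. None of the 7 cholesterol genes was among the 3.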

How the results depend on the processing

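At 1 week, calls among all genes were 62 without the filter on low counts and 957 with DESeq2, and 0 to 320 with 1 library left out. Calls among the 7 genes were 0 to 1 with 1 library left out, and 4 to 7 of the 7 were lower. Leave-one-out log2 differences were -0.70 to 0.33 for Hmgcs1, -0.07 to 0.29 for Sqle, -0.40 to 0.18 for Idi1 and -0.12 to 2.96 for Mvd, so these directions turned, and without the filter that of Hmgcs1 was -0.01. Insig2, at 0.00 as reported, ran from -0.79 to 0.42.

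At 1 month, scaling by library totals moved the median of all genes from -0.006 to 0.215 and the calls from 121 higher and 148 lower to 456 higher and 105 lower, 561 in all. Calls were 1276 without the filter, 768 with DESeq2, 1474 in batch 2 alone, 45 to 1522 with 1 library left out, and 0 without the batch term, where 919 genes had an unadjusted p under 0.05. Calls among the 7 genes were 0 with library totals and without the batch term, and 0 to 1 with 1 library left out. The genes of the 7 with all KO libraries lower were 5 with TMM, 4 with DESeq2-type size factors (RLE) and 2 with library totals. With library totals Hmgcs1 was 0.01.

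For the difference between times, calls were 137 without the filter, 917 with DESeq2 and 0 to 440 with 1 library left out, and 0 to 1 of the 7 passed. Lss was 0.29 with library totals and 0.09 without the filter, and leave-one-out values were -0.43 to 0.93 for Lss, -0.57 to 0.50 for Hmgcs1 and -0.21 to 1.03 for Fdft1. The causes of these changes were not tested. The values recomputed were counted by whether their direction and their side of the threshold both stayed. The count was 166 of 180 at 1 week, 202 of 237 at 1 month and 147 of 162 for the difference. Insig2 at 1 week, whose reported value rounds to 0, could not be counted as turned. Depth limits Idi1 and Lss most, with as few as 9 and 11 counts in a library at 1 month. No paired analysis was possible because the labels give no replicate numbers shared between the groups.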

Other observations

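Of 106 genes of the lists and of the 7, apart from Stag2, Pecam1, which encodes an adhesion protein of endothelial cells, was the 1 gene whose groups did not overlap with the same direction at 1 week and at 1 month. Among all genes tested, the groups did not overlap for 26.5% at 1 week, and for 5.72% with KO higher and 7.58% with KO lower at 1 month. How many of all genes did so at both times was not counted, so Pecam1 is not shown to stand out. At 1 week the levels of Pecam1 were 81.2, 74.4 and 76.6 CPM in the WT libraries and 132.7, 148.5 and 301.3 CPM in the KO libraries, a log2 difference of 1.33 (adjusted p 0.172 with edgeR). At 1 month they were 25.8, 53.1 and 56.6 CPM, against 70.9, 149.7 and 111.7 CPM with the knockout, a log2 difference of 1.31 (adjusted p 0.062). Neither difference passed the test. The other endothelial genes of the list, Kdr (0.26 and 1.13 on the log2 scale at the 2 times) and Cdh5 (0.70 and 0.35), were also higher in KO without passing. Pecam1 was chosen after its values were seen.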
